A study of Rattus norvegicus with 6 samples.

Results

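Cell division genes are described here in rat trigeminal ganglia, the clusters of sensory neurons that serve the face. They are 36 named genes, taken by symbol from the count table of the series, which lists 29884 genes. Of these, 25 act in mitosis (chromosome structure, mitotic cyclins and kinases, spindle, kinetochore and exit from mitosis, with the transcription factor Foxm1), and 11 act in DNA replication or its control. All 36 were in the table and all 36 passed the filter on low counts, as did 16478 genes in all.

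Messenger RNA was sequenced from 6 samples of wild type Rattus norvegicus. In the 3 conduit samples, rats had a chronic constriction of the infraorbital nerve, CCI-ION, a model of trigeminal neuralgia, and had been given the SFM-Gel-light @NGC treatment, which the title of the series describes as a light-driven nerve conduit. In the 3 injury samples, rats had CCI-ION alone. Every sample was therefore ganglion tissue after constriction of the nerve, and no uninjured ganglion is analysed here. No source used here gives strain, age or sex. The labels place the conduit samples at days 17, 18 and 19 and the injury samples at days 14, 15 and 16 after injury. They place conduit sample 1 and injury sample 3 in batch 2, conduit samples 2 and 3 in batch 3, and injury samples 1 and 2 in batch 1. Treatment thus cannot be told apart from day, and it can be told apart from batch only through the pair in batch 2. Nothing in the labels ties samples to separate animals, so p-values reflect only the spread between these samples, which may be technical.

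A dividing cell first copies its DNA, for which the MCM helicase opens the strands and PCNA clamps the polymerase to them, and then separates the copies on a spindle of microtubules. Genes of the DNA copying step are switched on by E2F factors in late G1 and S phase. Genes of mitosis follow in G2 and M phase, under MYB-MuvB and FOXM1, and are silenced by the DREAM complex in resting cells. Sensory neurons of the adult ganglion do not divide, whereas glia, fibroblasts, vessel cells, macrophages and blood precursors can.

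Both classes carry known promoter elements, and the sequences below show them for the genes with the smallest p in each class that hold them. The windows are the 200 bases before the start site in RefSeq's GRCr8 assembly, read on the gene's own strand. Capitals mark the CHR letters TTTGAA or TTTAAA, the letters CCAAT, and E2F letters, each on either strand. The E2F letters were TTCCCGC and its variants, of which the first was TTGGCGC, the next one was TTCGCGC and the last one searched was TTGCCGC. The letters TTTAAA read the same on both strands, and E2F letters of both strands overlap where TTGGCGCGAA occurs. The mitosis genes are Ccnb2 (chr8:79981659-79981858, minus strand), Birc5 (chr10:103571946-103572145, plus strand), Mki67 (chr1:199952594-199952793, minus strand) and Kif20a (chr18:26504222-26504421, plus strand). The replication genes are Mcm5 (chr19:13488613-13488812, plus strand) and Mcm6 (chr13:42404353-42404552, minus strand).
Ccnb2: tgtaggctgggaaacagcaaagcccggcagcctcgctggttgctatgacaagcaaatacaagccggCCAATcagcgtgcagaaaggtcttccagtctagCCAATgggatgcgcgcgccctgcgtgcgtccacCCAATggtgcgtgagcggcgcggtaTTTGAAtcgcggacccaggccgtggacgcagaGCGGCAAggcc
Birc5: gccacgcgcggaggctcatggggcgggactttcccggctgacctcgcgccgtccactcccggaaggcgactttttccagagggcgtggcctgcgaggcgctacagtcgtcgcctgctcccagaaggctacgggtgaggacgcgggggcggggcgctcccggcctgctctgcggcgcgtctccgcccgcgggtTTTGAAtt
Mki67: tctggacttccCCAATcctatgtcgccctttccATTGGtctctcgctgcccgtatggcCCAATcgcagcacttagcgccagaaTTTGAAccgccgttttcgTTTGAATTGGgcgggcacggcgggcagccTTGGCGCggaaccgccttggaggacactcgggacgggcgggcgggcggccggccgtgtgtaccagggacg
Kif20a: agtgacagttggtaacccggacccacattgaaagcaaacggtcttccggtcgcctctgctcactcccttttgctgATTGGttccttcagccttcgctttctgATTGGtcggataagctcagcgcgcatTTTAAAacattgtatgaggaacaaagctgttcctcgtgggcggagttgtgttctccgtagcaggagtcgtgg
Mcm5: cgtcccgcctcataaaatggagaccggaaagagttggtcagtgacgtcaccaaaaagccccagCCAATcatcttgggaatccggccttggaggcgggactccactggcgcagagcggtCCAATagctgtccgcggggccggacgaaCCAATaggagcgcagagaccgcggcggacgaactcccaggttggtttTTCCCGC
Mcm6: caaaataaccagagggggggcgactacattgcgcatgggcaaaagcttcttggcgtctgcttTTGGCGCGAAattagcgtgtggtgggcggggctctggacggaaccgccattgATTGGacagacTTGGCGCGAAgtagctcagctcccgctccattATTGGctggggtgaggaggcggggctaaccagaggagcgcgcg
In Ccnb2 the CHR letters began 43 bases before the start, with CCAAT at 68, 101 and 134 bases, and in Birc5 the CHR letters began 8 bases before it. Mki67 held CHR letters at 99 and 117 bases. Mcm5 ended in E2F letters 7 bases before the start, and Mcm6 held E2F letters at 72, 75, 135 and 138 bases.

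The table holds a promoter for 28 of the 36 genes, 20 of mitosis and 8 of replication. Ccna2, Aurkb, Tpx2, Ube2c, Foxm1, Mcm4, Rrm2 and E2f1 were not matched. Over the 250 bases before the start, CHR letters stood in 18 of 20 mitosis promoters (90%) and in 1 of 8 replication promoters (12.5%), against 17.6% of the promoters of 12830 tested genes and 25.3% of all 27457 promoters. E2F letters showed the other order, with 3 of 20 mitosis promoters (15%) and 5 of 8 replication promoters (62.5%), against 12.7% of the promoters of tested genes and 7.97% of all promoters. CCAAT stood in 17 of 20 (85%) and 5 of 8 (62.5%), against 34.8% and 34.3%. CHR and CCAAT together stood in 16 of 20 mitosis promoters (80%) and in 0 of 8 replication promoters, against 6.33% of tested genes. Bub1b and Ttk were the mitosis genes without CHR letters in this window. These matches describe letters and not bound sites.

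Depth was even over the 6 libraries, at 40.2 M to 41.9 M counts, with 19894 to 21061 genes detected in each. Levels are given as CPM, the counts of a gene relative to its library's total after TMM scaling, and a floor of 3 counts was 0.0710 to 0.0753 CPM. All 12 sensory neuron markers were detected, with summed levels of 20776 to 29519 CPM in conduit samples and 22301 to 24234 CPM in injury samples. Other tissue stood out in single libraries: skeletal muscle markers summed to 8033 CPM in conduit sample 2 and 471 CPM in injury sample 1 and to no more than 15.6 CPM elsewhere, and pituitary markers summed to 6144 CPM in injury sample 1 and to no more than 17.0 CPM elsewhere.

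The summed levels of the cell division genes did not split the samples by treatment. They were high in injury samples 2 and 3, and low in the 3 conduit samples and in injury sample 1. The 25 mitosis genes summed to 61.8, 58.3 and 45.1 CPM in conduit samples 1, 2 and 3, against 47.6, 207 and 138 CPM in injury samples 1, 2 and 3. The sum in injury sample 1 lay within the conduit range, so the groups overlapped. The 11 replication genes summed to 129, 119 and 115 CPM in the conduit samples, against 125, 194 and 156 CPM in the injury samples. The same 2 libraries were high and the groups again overlapped, with a smaller gap. Relative to injury sample 1, the median mitosis gene stood at 1.29, 1.19 and 0.903 times in the conduit samples, and at 4.44 and 2.66 times in injury samples 2 and 3. The median replication gene stood at 1.04, 0.950 and 0.937 times in the conduit samples, and at 1.66 and 1.31 times in injury samples 2 and 3. In bulk tissue, fewer dividing cells and less of these RNAs per cell cannot be told apart.

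**Figure D1:**
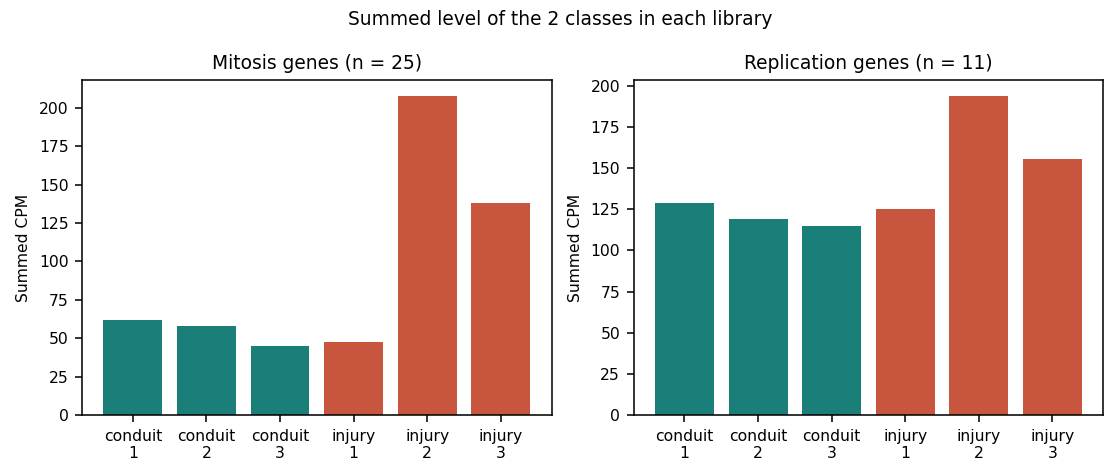
Summed CPM of the 25 mitosis genes (left) and the 11 replication genes (right) in each library, conduit samples in green and injury samples in red; each bar is 1 library, without an error. Injury samples 2 and 3 stand at 207 and 138 CPM for mitosis genes, and the other 4 libraries at 45.1 to 61.8 CPM.

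Injury sample 2 held the highest level of 25 of 25 mitosis genes and of 10 of 11 replication genes, the exception being E2f1, which was highest in conduit sample 3. Injury samples 2 and 3 both stood above the other 4 libraries for 25 mitosis genes and 9 replication genes, the exceptions being Pcna and E2f1. Over all genes tested, 9.65% showed that order, which was looked for after the values were seen. Injury sample 1 lay within the range of the conduit samples for 12 mitosis genes, below it for 9 and above it for 4. For replication genes these numbers were 8, 1 and 2. The lowest library was a conduit sample for 16 mitosis genes, 13 of them in conduit sample 3, and injury sample 1 for 9.

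Mitosis genes varied more between libraries than replication genes did. The highest library exceeded the lowest by 1.81 to 25.4 times among mitosis genes, with a median of 5.42 times, and by 1.21 to 5.43 times among replication genes, with a median of 2.22 times. Per length, the levels were low: the mean over the 6 libraries was 0.221 to 2.63 FPKM for mitosis genes, with a median of 1.20 FPKM, and 1.07 to 32.0 FPKM for replication genes, with a median of 2.29 FPKM. Pcna, at 32.0 FPKM, was the most abundant of the 36 and Ttk, at 0.221 FPKM, the least. The summed FPKM of the mitosis genes was 0.343, 0.391 and 0.319 of that of the replication genes in the conduit samples, against 0.311, 0.819 and 0.667 in the injury samples. Injury samples 2 and 3 thus held the highest ratios, and injury sample 1 the lowest.

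**Figure D2:**
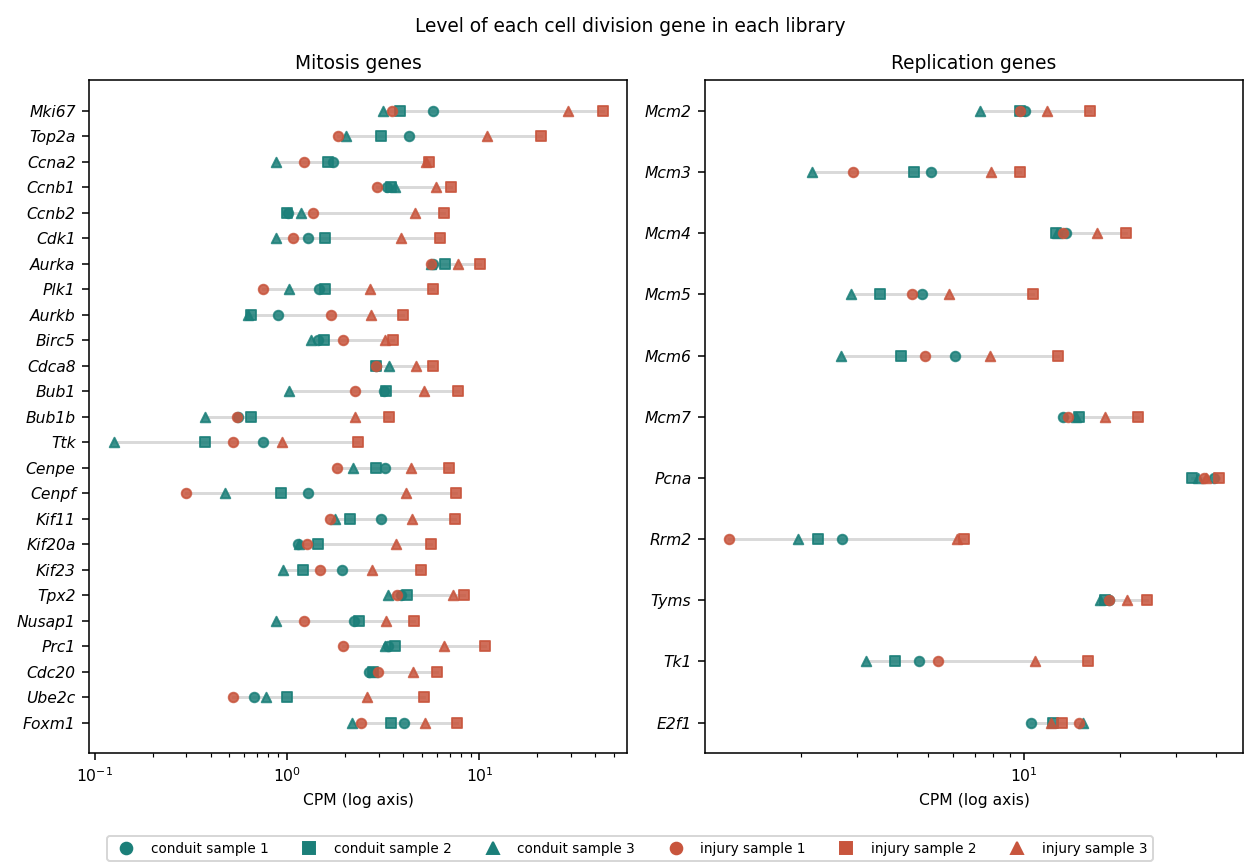
CPM (log axis) of each of the 25 mitosis genes (left) and 11 replication genes (right); each point is 1 library, green for conduit and red for injury, and the grey line spans the range. The red square and triangle, injury samples 2 and 3, lie to the right of the other 4 points for all 25 mitosis genes, while the red circle, injury sample 1, lies among or below the green points for all but 4 of them.

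The comparison of conduit with injury asks which transcripts of the ganglion differed after treatment. None of the 36 genes passed edgeR's quasi-likelihood test at an adjusted p under 0.05 over all genes tested, where 1 gene (0.00607%) passed. The fitted log2 fold changes of conduit over injury were below 0 for all 36, against 49.5% of all genes. For 22 of the 36 the sign changed under at least 1 other setting. For 20 of these the setting left out injury samples 2 and 3, a pair chosen after it was seen to be high. The median log2 fold change over all 6 samples was -1.16 for mitosis genes and -0.48 for replication genes, against 0.0017 for all genes. At an unadjusted edgeR p under 0.05, 10 mitosis and 2 replication genes were lower, or 12 of 36, against 2.36% of all genes, and 0 of 36 were higher, against 2.99%. DESeq2 called 3 lower at an adjusted p under 0.05 (Ccnb2, Aurkb and Tk1), against 0.572% of the 17126 genes it tested. All conduit libraries lay below all injury libraries for 6 of 36 genes (Ccnb2, Aurkb, Birc5, Cdc20, Tyms and Tk1), against 4.22% of all genes, and above them for 0, against 5.41%.

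The medians depended on which injury libraries were counted. Leaving out injury samples 2 and 3 was chosen after they were seen to be highest for most of these genes. A move of the medians toward or past 0 was thus set in advance. The only injury library left was injury sample 1, in which pituitary markers summed to 6144 CPM. The median was then 0.21 for mitosis genes and -0.05 for replication genes, and 20 of the 36 fitted changes turned positive. Those of Aurkb (-0.78), Birc5 (-0.44) and Tk1 (-0.45) were among the 16 that did not. Without injury sample 2 alone the medians were -0.64 and -0.26. Injury sample 1 stood below injury samples 2 and 3 for 25 of 25 mitosis genes and 10 of 11 replication genes. Leaving it out was thus bound to move the medians further below 0. Without injury sample 1 the medians were -1.49 and -0.62. At an unadjusted edgeR p under 0.05, 24 of 25 mitosis and 9 of 11 replication genes were then lower in conduit. In that fit 4.08% of all genes were lower at that p, and Mki67 passed (edgeR adjusted p = 0.0351). In batch 2, with only 1 library from either group and so no test, conduit sample 1 stood below injury sample 3 for 25 of 25 mitosis genes and 10 of 11 replication genes, with median log2 differences of -0.88 and -0.33. With batch as a covariate the medians were -0.89 and -0.33, and 0 of 36 genes had an unadjusted edgeR p under 0.05, against 0.382% of all genes that were lower at that p.

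**Figure D3:**
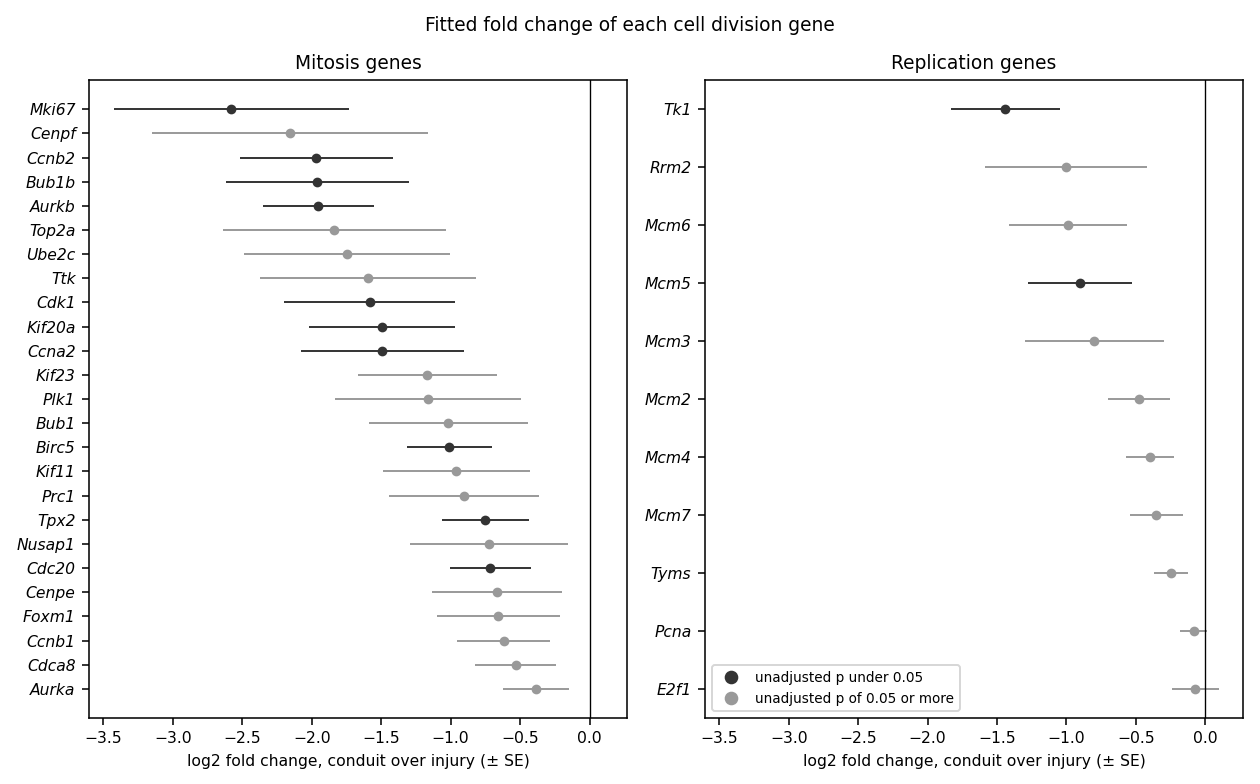
Fitted log2 fold change of conduit over injury for the 25 mitosis genes (left) and 11 replication genes (right), with bars of 1 SE; dark points have an unadjusted edgeR p under 0.05. All 36 points lie below 0, from -2.58 for Mki67 to -0.07 for E2f1, and none passed after adjustment. For 22 of the 36 the sign changed under at least 1 other setting. For 20 of them this was without injury samples 2 and 3, a pair chosen after it was seen to be high.

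Genes of chromosome structure spanned some of the widest ranges. Mki67, which encodes the proliferation marker Ki-67 that coats mitotic chromosomes, stood at 5.74, 3.84 and 3.16 CPM in conduit samples 1, 2 and 3, against 3.51, 43.8 and 28.9 CPM in injury samples 1, 2 and 3. Injury samples 2 and 3 were far above the rest and injury sample 1 lay within the conduit range. It averaged 4.25 ± 1.34 CPM in conduit and 25.4 ± 20.4 CPM in injury (SD, n = 3 each), a log2 fold change of -2.58 (SE 0.85; edgeR adjusted p = 0.810). Top2a, the topoisomerase that untangles sister DNA, stood at 4.30, 3.06 and 2.03 CPM in conduit, against 1.84, 20.8 and 10.9 CPM in injury. Its lowest and its highest level were both in injury samples, 11.3 times apart.

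The mitotic cyclins and Cdk1, the kinase they activate, shared this order. Ccnb2, encoding cyclin B2, had 1.01, 1.00 and 1.18 CPM in conduit, against 1.37, 6.55 and 4.60 CPM in injury. All conduit samples were below all injury samples, though injury sample 1 stood only just above them. Means were 1.07 ± 0.0989 CPM in conduit and 4.17 ± 2.62 CPM in injury (SD, n = 3 each), and the log2 fold change was -1.97 (SE 0.55; edgeR adjusted p = 0.697, DESeq2 adjusted p = 0.0337). Ccnb1, encoding cyclin B1, was the most abundant of the 4 by CPM, with 3.31, 3.47 and 3.64 CPM in conduit against 2.93, 7.12 and 5.93 CPM in injury (log2 fold change -0.62, SE 0.33; edgeR adjusted p = 1.00). Its groups overlapped because injury sample 1 held the lowest level. Ccna2, the cyclin of S phase and G2, had 1.74, 1.63 and 0.879 CPM in conduit, against 1.22, 5.49 and 5.25 CPM in injury. Cdk1 had 1.28, 1.58 and 0.879 CPM in conduit, against 1.07, 6.22 and 3.93 CPM in injury. For both, injury sample 1 lay inside the conduit range.

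Among the mitotic kinases, Plk1, which drives entry into mitosis and spindle assembly, had 1.47, 1.58 and 1.03 CPM in conduit, against 0.746, 5.70 and 2.70 CPM in injury (log2 fold change -1.16, SE 0.67; edgeR adjusted p = 1.00). Aurka, the Aurora A kinase of the spindle poles, had 5.74, 6.63 and 5.57 CPM in conduit, against 5.62, 10.1 and 7.74 CPM in injury (log2 fold change -0.39, SE 0.24; edgeR adjusted p = 1.00). Its highest level was 1.81 times its lowest, the narrowest span of the mitosis genes, and injury sample 1 lay within the conduit range, whereas for Plk1 it lay below it.

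The chromosomal passenger complex, which corrects faulty spindle attachments, held the mitosis gene with the smallest p. Aurkb, its Aurora B kinase, had 0.893, 0.653 and 0.628 CPM in conduit, against 1.69, 4.02 and 2.72 CPM in injury. All conduit samples were below all injury samples, with 25 to 37 counts in conduit and 68 to 170 in injury. Means were 0.724 ± 0.146 CPM in conduit and 2.81 ± 1.17 CPM in injury (SD, n = 3 each), and the log2 fold change of -1.95 (SE 0.40) had the smallest p of all 36 genes (edgeR adjusted p = 0.514, DESeq2 adjusted p = 0.00288). Birc5, encoding survivin, had 1.45, 1.56 and 1.33 CPM in conduit, against 1.96, 3.55 and 3.23 CPM in injury, again without overlap. Cdca8, encoding borealin, had 2.90, 2.91 and 3.39 CPM in conduit, against 2.88, 5.72 and 4.70 CPM in injury (log2 fold change -0.53, SE 0.29; edgeR adjusted p = 1.00). Its groups overlapped, with injury sample 1 at the low end. Without injury samples 2 and 3, the log2 fold change was still -0.78 for Aurkb and -0.44 for Birc5, from 1 injury library.

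Of the spindle checkpoint and kinetochore genes, Ttk and Bub1b had the fewest counts. Bub1b, encoding the checkpoint protein BubR1, had 0.555, 0.653 and 0.377 CPM in conduit, against 0.547, 3.41 and 2.24 CPM in injury (log2 fold change -1.96, SE 0.66; edgeR adjusted p = 0.809). Bub1, a checkpoint kinase, had 3.19, 3.26 and 1.03 CPM in conduit, against 2.26, 7.71 and 5.16 CPM in injury (log2 fold change -1.02, SE 0.57; edgeR adjusted p = 1.00). Injury sample 1 lay within the conduit range for both, and conduit sample 3 held the lowest level. Ttk, the checkpoint kinase Mps1, had 0.748, 0.377 and 0.126 CPM in conduit, against 0.522, 2.34 and 0.940 CPM in injury, with 5 counts in conduit sample 3. Cenpf, a protein of the outer kinetochore, had 1.28, 0.929 and 0.477 CPM in conduit, against 0.298, 7.57 and 4.15 CPM in injury (log2 fold change -2.16, SE 0.99; edgeR adjusted p = 0.989). Its span of 25.4 times was the widest of the 36, and both ends of it were injury samples. The low end rested on 12 counts in injury sample 1, against 320 in injury sample 2. Cenpe, a motor that carries chromosomes to the spindle equator, had 3.21, 2.89 and 2.21 CPM in conduit, against 1.81, 6.95 and 4.41 CPM in injury (log2 fold change -0.67, SE 0.47; edgeR adjusted p = 1.00). For Cenpf and Cenpe, injury sample 1 was the lowest library.

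Of the spindle motors and microtubule proteins, Kif20a, a motor of the midzone and cytokinesis, had 1.13, 1.46 and 1.15 CPM in conduit, against 1.27, 5.63 and 3.66 CPM in injury (log2 fold change -1.49, SE 0.53; edgeR adjusted p = 0.839). Tpx2, which activates Aurora A on the spindle, had 3.91, 4.19 and 3.36 CPM in conduit, against 3.73, 8.30 and 7.25 CPM in injury (log2 fold change -0.75, SE 0.31; edgeR adjusted p = 0.932). In both, injury sample 1 lay inside the conduit range. Kif11, the motor that pushes the spindle poles apart, had 3.06, 2.13 and 1.78 CPM in conduit, against 1.67, 7.47 and 4.43 CPM in injury. Kif23, a motor of the central spindle, had 1.93, 1.21 and 0.954 CPM in conduit, against 1.49, 4.94 and 2.77 CPM in injury. Injury sample 1 was the lowest library for Kif11 but not for Kif23. Prc1, which bundles midzone microtubules, had 3.35, 3.64 and 3.24 CPM in conduit, against 1.96, 10.6 and 6.51 CPM in injury. Nusap1, which binds spindle microtubules, had 2.22, 2.36 and 0.879 CPM in conduit, against 1.22, 4.56 and 3.25 CPM in injury. The conduit samples were close together for Prc1, whereas for Nusap1 conduit sample 3 was the lowest library.

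Cdc20 and Ube2c serve the anaphase-promoting complex, the ubiquitin ligase that ends mitosis. Cdc20, its activator, had 2.65, 2.79 and 2.79 CPM in conduit, against 2.98, 5.98 and 4.53 CPM in injury (log2 fold change -0.71, SE 0.29; edgeR adjusted p = 0.915). The groups did not overlap, but injury sample 1 stood close to the conduit samples. Ube2c, its ubiquitin-conjugating enzyme, had 0.676, 1.00 and 0.778 CPM in conduit, against 0.522, 5.16 and 2.60 CPM in injury, with injury sample 1 lowest. Foxm1, the transcription factor that activates mitosis genes, had 4.03, 3.47 and 2.18 CPM in conduit, against 2.44, 7.66 and 5.18 CPM in injury (log2 fold change -0.66, SE 0.44; edgeR adjusted p = 1.00). It followed the same order as the mitosis genes, with injury sample 1 inside the conduit range.

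The MCM genes, whose products form the replicative helicase, differed among themselves. Mcm5 had 4.80, 3.54 and 2.86 CPM in conduit, against 4.45, 10.7 and 5.81 CPM in injury (log2 fold change -0.90, SE 0.37; edgeR adjusted p = 0.925). Mcm7 had 13.2, 14.9 and 14.5 CPM in conduit, against 13.7, 22.8 and 18.0 CPM in injury (log2 fold change -0.35, SE 0.19; edgeR adjusted p = 1.00). Both had injury sample 1 inside the conduit range, and Mcm7 spanned 1.72 times against 3.73 times for Mcm5. Mcm3 had 5.09, 4.52 and 2.16 CPM in conduit, against 2.91, 9.70 and 7.88 CPM in injury. Mcm6 had 6.06, 4.12 and 2.66 CPM in conduit, against 4.90, 12.8 and 7.81 CPM in injury. Mcm3 and Mcm6 varied like Mcm5, with conduit sample 3 lowest. Mcm2 had 10.04, 9.72 and 7.26 CPM in conduit, against 9.70, 16.1 and 11.8 CPM in injury. Mcm4 had 13.5, 12.6 and 12.7 CPM in conduit, against 13.3, 20.9 and 17.0 CPM in injury. For all 6 MCM genes injury sample 2 was highest and injury sample 3 next, and the groups overlapped.

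Among enzymes of nucleotide supply, Tk1, the thymidine kinase of dividing cells, had 4.68, 3.94 and 3.19 CPM in conduit, against 5.37, 15.9 and 10.8 CPM in injury. The groups did not overlap, and injury sample 1 stood nearest to conduit. Means were 3.94 ± 0.746 CPM in conduit and 10.7 ± 5.26 CPM in injury (SD, n = 3 each), with a log2 fold change of -1.44 (SE 0.39; edgeR adjusted p = 0.666, DESeq2 adjusted p = 0.0249). Tyms, thymidylate synthase, had 18.4, 17.9 and 17.3 CPM in conduit, against 18.5, 24.2 and 21.0 CPM in injury (log2 fold change -0.25, SE 0.12; edgeR adjusted p = 1.00). Its groups did not overlap by a narrow margin between conduit sample 1 and injury sample 1. Rrm2, the inducible subunit of ribonucleotide reductase, had 2.68, 2.26 and 1.96 CPM in conduit, against 1.19, 6.48 and 6.17 CPM in injury. Injury sample 1 was lowest, and the span of 5.43 times was the widest of the replication genes.

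Pcna and E2f1 departed from the others. Pcna, the sliding clamp, which also serves DNA repair, had 39.5, 33.5 and 35.1 CPM in conduit, against 36.6, 40.7 and 37.3 CPM in injury (log2 fold change -0.08, SE 0.10; edgeR adjusted p = 1.00). The groups overlapped, the libraries lay within 1.21 times of each other, and the fitted change turned to 0.08 with batch as a covariate. E2f1, an E2F activator of replication genes, had 10.5, 12.3 and 15.3 CPM in conduit, against 14.9, 13.2 and 12.1 CPM in injury (log2 fold change -0.07, SE 0.17; edgeR adjusted p = 1.00). Conduit samples held both its lowest and its highest level, and the fitted change turned to 0.05 without conduit sample 1 and to 0.02 without injury sample 1.

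Beyond the 36, a further 130 cell cycle genes in 8 lists were all in the table and all tested. None passed edgeR after adjustment; at an unadjusted edgeR p under 0.05, 24 were lower, against 2.36% of all genes, and 1 was higher, against 2.99%. All conduit libraries lay below all injury libraries for 27, against 4.22% of all genes, and above them for 2, against 5.41%. DESeq2 called 6 lower, against 0.572% of the genes it tested, and 0 higher, against 112 of the 17126 genes it tested. The median log2 fold change over the 130 was -0.39. List medians were lowest for spindle and cytokinesis (-0.93, 25 genes), kinetochore and centromere (-0.86, 19 genes) and mitotic entry and exit (-0.75, 16 genes). They were -0.43 for origin licensing and firing (15 genes), -0.22 for the replication fork (22 genes) and -0.22 for G1 cyclins and their kinases (8 genes). They were nearest to 0 for E2F, DREAM and MYB factors (-0.12, 15 genes) and cell cycle inhibitors (-0.10, 10 genes). Without injury samples 2 and 3, the medians of the 8 lists lay between -0.09 and 0.19.

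**Figure D4:**
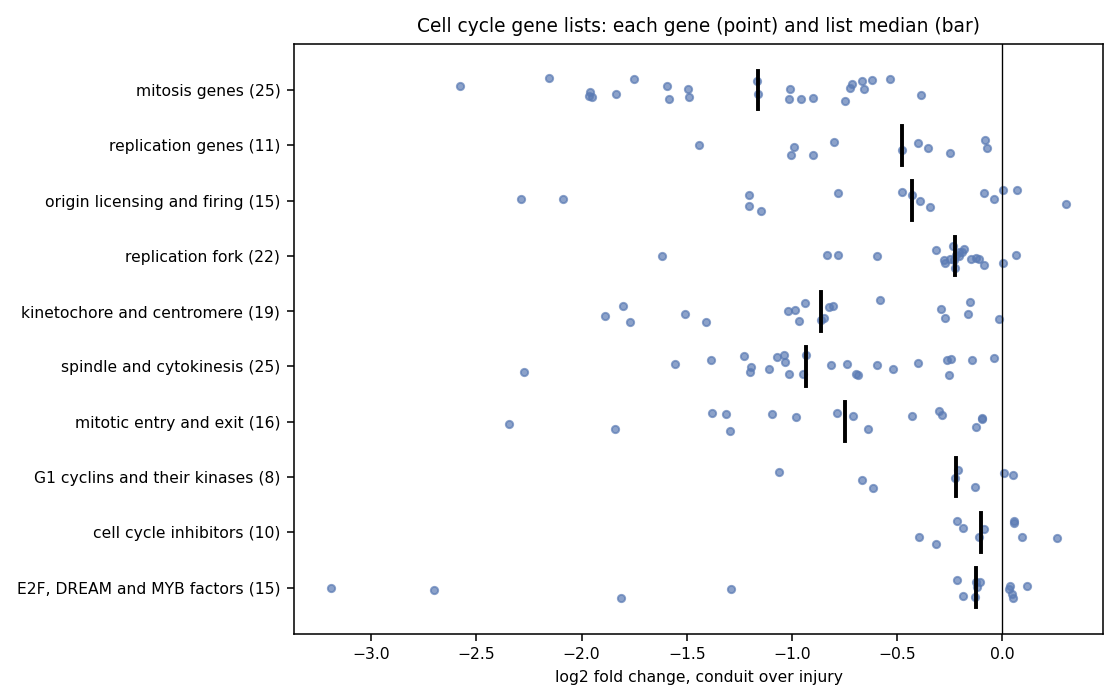
Fitted log2 fold change of conduit over injury for every gene (points) of the 2 classes and of 8 further cell cycle lists, with the number of genes in brackets and the list median as a black bar. Medians of the spindle, kinetochore and mitotic entry lists lie between -0.93 and -0.75, and those of the inhibitor and E2F lists near -0.10 and -0.12.

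Genes of mitotic entry and exit (5 of 16 lower at an unadjusted edgeR p under 0.05, against 2.36% of all genes, and 0 higher, against 2.99%) included the gene with the smallest p of the 130, Cdc25b. Cdc25b, a phosphatase that activates Cdk1, had 46.8, 46.5 and 50.5 CPM in conduit, against 64.6, 81.5 and 77.5 CPM in injury (log2 fold change -0.64, SE 0.11; edgeR adjusted p = 0.315, DESeq2 adjusted p = 0.000197). Pttg1, encoding securin, had 0.772, 0.904 and 0.477 CPM in conduit, against 1.57, 4.64 and 4.77 CPM in injury (log2 fold change -2.34, SE 0.51; edgeR adjusted p = 0.541, DESeq2 adjusted p = 0.00163). In both, injury sample 1 stood above every conduit sample.

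At the replication fork, 3 of 22 genes were lower at an unadjusted edgeR p under 0.05, against 2.36% of all genes, and 0 higher, against 2.99%. Prim1, the primase subunit that makes the RNA primer, had 17.6, 15.2 and 17.1 CPM in conduit, against 33.5, 25.05 and 27.4 CPM in injury (log2 fold change -0.78, SE 0.14; edgeR adjusted p = 0.363, DESeq2 adjusted p = 0.000576). Unlike the mitosis genes, it was highest in injury sample 1. Rpa2 and Rpa1, subunits of the protein that coats single-stranded DNA, had log2 fold changes of -0.32 (SE 0.12) and 0.00 (SE 0.09). In origin licensing and firing, 2 of 15 were lower at that p and 0 higher, against the same shares of all genes. Cdt1, which loads the MCM helicase, had 1.86, 2.01 and 2.18 CPM in conduit, against 2.96, 6.08 and 4.92 CPM in injury (log2 fold change -1.20, SE 0.31; edgeR adjusted p = 0.627, DESeq2 adjusted p = 0.0359). Cdc6, its partner in loading, had 0.555, 0.477 and 0.251 CPM in conduit, against 0.597, 2.98 and 2.72 CPM in injury (log2 fold change -2.29, SE 0.66; edgeR adjusted p = 0.725). Neither overlapped between groups, whereas Orc2, a subunit of the origin recognition complex, overlapped with a log2 fold change of -0.04 (SE 0.19).

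Of the spindle and cytokinesis genes 7 of 25, and of the kinetochore and centromere genes 2 of 19, were lower at an unadjusted edgeR p under 0.05, against 2.36% of all genes, with 0 higher in either list, against 2.99%. Kif22, a motor that moves chromosome arms, had 3.72, 3.31 and 3.79 CPM in conduit, against 4.25, 9.46 and 8.15 CPM in injury (log2 fold change -1.01, SE 0.31; edgeR adjusted p = 0.748). Ect2, which starts cytokinesis through RhoA, had 1.13, 0.954 and 0.954 CPM in conduit, against 1.29, 3.19 and 2.48 CPM in injury (log2 fold change -1.19, SE 0.39; edgeR adjusted p = 0.799). Both had groups that did not overlap, with injury sample 1 just above conduit. Incenp, a scaffold of the chromosomal passenger complex, overlapped at a log2 fold change of -0.04 (SE 0.15). Cenpw and Ska1, of the inner and outer kinetochore, had log2 fold changes of -1.89 (SE 0.61) and -1.41 (SE 0.53), and Cenpn, which binds centromeric nucleosomes, had -0.15 (SE 0.19); their edgeR adjusted p-values were 0.792, 0.891 and 1.00.

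Lists of G1 control had medians nearer to 0. At an unadjusted edgeR p under 0.05, 2 of 8 G1 cyclins and kinases and 3 of 15 E2F, DREAM and MYB factors were lower, against 2.36% of all genes, and 0 higher. Of the inhibitors, 1 of 10 was higher, against 2.99% of all genes, and 0 were lower. Ccne1 and Ccne2, encoding the E cyclins that start S phase, had log2 fold changes of -0.62 (SE 0.17; edgeR adjusted p = 0.678) and -1.06 (SE 0.37; edgeR adjusted p = 0.839), and Ccnd1, encoding cyclin D1, had 0.05 (SE 0.14). Cdkn1b, encoding the inhibitor p27, had 188, 199 and 182 CPM in conduit, against 161, 146 and 170 CPM in injury (log2 fold change 0.26, SE 0.09; edgeR adjusted p = 0.829). Its conduit samples were all above its injury samples, while Cdkn2c, encoding the inhibitor p18, had a log2 fold change of -0.31 (SE 0.21). E2f2, an activator E2F, had 4.90, 5.55 and 4.62 CPM in conduit, against 6.07, 29.1 and 17.7 CPM in injury (log2 fold change -1.81, SE 0.52; edgeR adjusted p = 0.721, DESeq2 adjusted p = 0.0138). E2f8, a repressor E2F of cycling cells, had 0.362, 0.301 and 0.126 CPM in conduit, against 0.298, 4.78 and 2.22 CPM in injury (log2 fold change -3.19, SE 0.97; edgeR adjusted p = 0.748, DESeq2 adjusted p = 0.0332). Mybl2, a MYB factor named after its values were seen, was the third of the 3 lower factors. It had 0.820, 0.678 and 0.201 CPM in conduit, against 0.224, 6.86 and 4.02 CPM in injury. Its log2 fold change was -2.70 (SE 1.10, edgeR adjusted p = 0.915). E2f2, E2f8 and Mybl2 were highest in injury samples 2 and 3, unlike E2f1 and unlike E2f6, a repressor, whose log2 fold change was 0.05 (SE 0.09).

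Markers of several blood and bone cell types, but not of macrophages, were also high in injury samples 2 and 3, and their part in the result was not tested. Both libraries stood above the other 4 for 12 of 14 neutrophil, 9 of 12 B cell and 6 of 9 progenitor and megakaryocyte markers in the table. They did so for 10 of 13 erythroid and 9 of 12 bone cell markers. For T and natural killer cell markers it was 1 of 11, and for macrophage markers 0 of 12. The share over all genes tested was 9.65%, while the marker counts also include markers that were not tested. The 14 markers of neutrophils and their precursors summed to 16.6, 42.1 and 21.5 CPM in conduit, against 64.6, 750 and 163 CPM in injury, with 12 tested, all 12 fitted lower, and Ltf at 0 in every library. S100a9 and S100a8, abundant neutrophil proteins, stood at 250 and 154 CPM in injury sample 2. The 13 B cell markers, of which 12 were in the table and 8 tested, summed to 65.5, 65.9 and 59.7 CPM in conduit, against 57.3, 96.1 and 68.5 CPM in injury. Ebf1, which other cells express too, made up most of that sum. Cd79a, part of the B cell receptor, had 1.06, 1.05 and 0.628 CPM in conduit, against 0.249, 10.998 and 4.55 CPM in injury. The 9 markers of blood progenitors and megakaryocytes summed to 93.1, 90.0 and 83.2 CPM in conduit, against 89.8, 161 and 103 CPM in injury; Kit, at 40.1 to 43.6 CPM in all libraries, varied little, and Pf4, a platelet factor, had 4.54, 2.01 and 1.98 CPM in conduit against 9.20, 26.9 and 9.57 CPM in injury. The order of the mitosis genes, with injury sample 1 near conduit and injury samples 2 and 3 above, was also that of Cd79a and Itga2b.

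The 12 bone cell markers summed to 2094, 1790 and 1873 CPM in conduit, against 1481, 2461 and 2546 CPM in injury, led by Col1a1, a collagen of fibroblasts too, and Spp1. The exceptions to the order of injury samples 2 and 3 were Alpl, Mmp13 and Spp1, which was highest in conduit sample 3 at 785 CPM. Ibsp, a bone matrix protein chosen after its values were seen, had 4.995, 3.57 and 6.83 CPM in conduit, against 8.60, 56.0 and 34.2 CPM in injury. The summed erythroid markers, led by globins, differed from the mitosis genes in injury sample 1: the 13 genes summed to 1401, 663 and 703 CPM in conduit, against 4946, 5476 and 4611 CPM in injury, so that all injury samples were high, with Hba-a1 at 2870.2 CPM and Hba-a2 at 1160 CPM in injury sample 1. The erythroid exceptions to that order were Hbb, Hba-a1 and Hba-a2. Macrophage markers, led by Csf1r and C1qa, had another order, with 278, 127 and 118 CPM in conduit, against 111, 179 and 140 CPM in injury, and conduit sample 1 highest. The 12 markers of T and natural killer cells, 11 of them in the table, summed to 27.8, 16.9 and 16.5 CPM in conduit, against 20.5, 35.005 and 24.5 CPM in injury, led by Cd4, which rat macrophages also express, with Nkg7 at 4.47 CPM in injury sample 2. Markers at 0 in some but not all libraries were Cxcr2 among neutrophil genes, Ms4a1, Rag1, Rag2 and Dntt among B cell genes, Gfi1b and Ppbp among progenitor genes, and Cd8b and Gzmb among T cell genes.

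Markers of the cells of the ganglion itself did not share the order of the mitosis genes. The 8 satellite glia markers summed to 8902, 5865 and 6809 CPM in conduit, against 6732, 5550 and 7716 CPM in injury. The 8 markers of myelinating Schwann cells summed to 47821, 42583 and 48849 CPM in conduit, against 35695, 29201 and 35108 CPM in injury, all conduit samples being higher. Endothelial markers summed to 338, 311 and 236 CPM in conduit, against 235, 290 and 266 CPM in injury. Fibroblast markers summed to 3753, 3328 and 2085 CPM in conduit, against 1799, 3196 and 2228 CPM in injury. Injury samples 2 and 3 were not the highest pair in any of these 4 sums, nor for any single marker of these 4 lists or of sensory neurons.

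**Figure D5:**
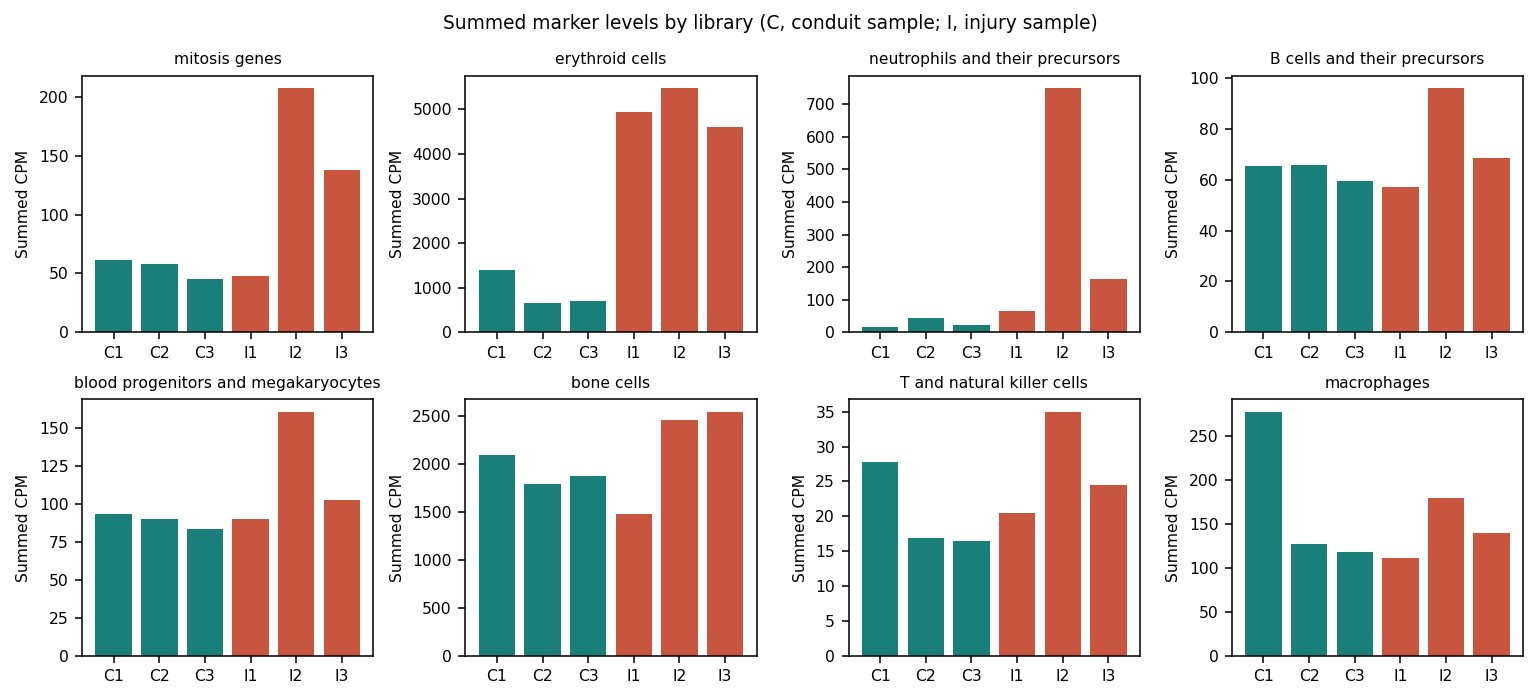
Summed CPM by library (C, conduit sample, green; I, injury sample, red) of the 25 mitosis genes and of markers of 7 other cell types; each bar is 1 library and each panel has its own axis from 0. Neutrophil, B cell, progenitor and bone cell sums are highest in injury samples 2 and 3, as is the mitosis sum. The neutrophil sum of injury sample 1, 64.6 CPM, also exceeds that of every conduit sample. Erythroid markers stand at 4611 CPM or more in all 3 injury samples, and macrophage markers are highest in conduit sample 1, at 278 CPM.

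RefSeq lists 23 pseudogene symbols for 14 of the 36 genes, among them Pcna, Aurka, Ube2c, Ccnb2, Tk1 and Mki67, and none of these symbols is in the count table. No source used here says how reads shared with such copies were counted, so the levels of these 14 genes are uncertain to that extent.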

How the data were processed

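Per the labels' protocols, TRIzol-extracted RNA was purified for mRNA before library preparation. The submitters' processing notes list HISAT2, HTSeq, fastp, SAMtools and DESeq2, with the mRatBN7.2 build, while no source used here gives versions, annotation or strand setting. The authors deposited unscaled counts, 1 whole number per gene symbol and library. The deposited FPKM values restate those counts per gene length and library total: 15192 of 15192 genes checked gave the same length within 1% in every library. FPKM served only to compare levels between genes and as an alternative.

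Tests used edgeR 4.0.16, DESeq2 1.42.0 and limma 3.58.1 under R 4.3.3, and sample titles gave the groups. Genes kept by filterByExpr (minimum count 10) numbered 16478; libraries were TMM-scaled and compared by edgeR's robust quasi-likelihood F test, with Benjamini-Hochberg adjustment over all genes kept and a threshold of 0.05. Residual degrees of freedom were 4, and the common biological coefficient of variation came to 0.295. An exact permutation test on 3 samples a group can reach a p of 0.1 at the lowest. The 36 genes and the other lists were chosen with earlier results of these data known, so no list has a test. Full statistics went to the gene with the smallest p and the gene with the highest mean CPM of each role; named from each further list were the 2 genes with the smallest p and the most abundant one, and from each cell type list the 2 with the highest CPM in any library. The 19 alternatives covered scaling, filters, tools, FPKM, replicate number, batch and left-out libraries. Symbols of 36 of 36 genes matched RefSeq (GRCr8), which gave names, pseudogene symbols and promoters; its coordinates belong to that build and not to mRatBN7.2.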

Additional observations from a re-analysis of the deposited data

How the results depend on the processing

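Over all genes, edgeR called 1 gene. With all genes that had any count it called 6, DESeq2 called 210, limma called 7 on log2(FPKM + 1) and 3 on log2(FPKM + 0.1), edgeR called 0 with the replicate block and 0 with batch as a covariate, and between 0 and 38 when each library was left out in turn. Without injury samples 2 and 3, which leaves 1 injury library assumed to vary like the conduit ones, it called 23. Of the mitosis genes DESeq2 called 2, and leaving out 1 library gave 0 to 1; of the replication genes DESeq2 called 1. Medians over mitosis genes ran from -1.49 to -0.64 and over replication genes from -0.62 to -0.26 when 1 library was left out, and on log2(FPKM + 1) the mitosis median was -0.45. Without injury samples 2 and 3 they were 0.21 and -0.049, and these log2 fold changes turned positive: Mki67 0.27, Top2a 0.76, Ccna2 0.21, Ccnb1 0.24, Cdk1 0.22, Aurka 0.088, Plk1 0.86, Cdca8 0.086, Bub1 0.14, Cenpe 0.61, Cenpf 1.57, Kif11 0.48, Tpx2 0.033, Nusap1 0.57, Prc1 0.79, Ube2c 0.64, Foxm1 0.40, Mcm3 0.43, Mcm7 0.051 and Rrm2 0.94. That of Pcna turned to 0.083 with batch as a covariate and 0.082 in batch 2 alone. That of E2f1 ran from -0.23 to 0.047 when 1 library was left out, positive without conduit sample 1 and without injury sample 1; the cause was not tested. Same-numbered samples had deviations correlated at -0.42, 0.06 and -0.07, and no sample correlated best with its own number. With 3 samples a group these values cannot decide whether the numbers pair samples, and the labels state no pairing. With the replicate block 4 mitosis genes and 1 replication gene were lower at an unadjusted edgeR p under 0.05, against 1.51% of all genes. Medians in that fit were -1.03 and -0.46. Depth limits the rarest genes: Ttk, Bub1b and Aurkb had 5 to 37 counts in each conduit library.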
